A study of Mus musculus with 6 samples.

Results

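The genes described here encode the non-collagen extracellular matrix glycoproteins and proteoglycans, read here in sorted mouse cells labelled neural crest cells (NCCs). The list holds 50 genes, found by their Ensembl identifiers among the 46983 genes of the deposited count table. RNAseq was read in GFP+ cells sorted by FACS from trypsinised E11.25 embryos, in 3 control and 3 BAF155/170-deficient libraries. Control embryos were Wnt1 Cre/+, BAF155 flox/+, BAF170 flox/+ and Rosa26 mTmG/+, so they too carried Cre and 1 floxed copy of each gene. BAF155/170-deficient embryos were likewise Wnt1 Cre/+ and Rosa26 mTmG/+ but homozygous for both floxed alleles (BAF155 flox/flox and BAF170 flox/flox). BAF155 and BAF170 are core subunits of the BAF chromatin remodeling complex, and the comparison asked how the transcripts of NCCs differ when both are deleted. Wnt1-Cre turns on GFP from the mTmG reporter in NCCs and their descendants, and also in dorsal cells of the neural tube.

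The extracellular matrix is the secreted meshwork that cells adhere to and migrate through. Basement membranes are sheets built on laminins, trimers of an alpha, a beta and a gamma chain, which nidogens, perlecan and agrin tie to other components and to cells. Microfibrils of fibrillin carry elastin and fibulins and hold latent TGF-beta through its binding proteins, while proteoglycans bind growth factors and water through their sugar chains. NCCs leave the neural tube by crossing a basement membrane and migrate through a matrix rich in fibronectin, laminin and versican.

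Libraries held 8191219 to 19808620 counts, and each deficient library was deeper than every control. Smarcc1, which encodes BAF155, had a level of 42.1, 55.0 and 35.1 CPM (counts relative to the TMM-normalised library size) in the controls and of 29.4, 26.4 and 24.4 CPM in the deficient libraries, a log2 fold change of −0.71 ± 0.16 (SE; edgeR quasi-likelihood test, Benjamini-Hochberg adjusted p = 0.0676). Smarcc2, which encodes BAF170, stood at 91.8, 89.9 and 92.9 CPM in the controls and at 85.9, 82.3 and 86.8 CPM in the deficient ones (log2 fold change −0.11 ± 0.06, edgeR, Benjamini-Hochberg adjusted p = 0.251). These counts cover the whole gene and do not resolve the deleted exons. Markers were checked against the label of the cells: the 54 listed markers of mesenchymal, glial, sensory, autonomic and dorsal neural tube cells summed to 279, 415 and 191 CPM in the controls and to 174, 126 and 109 CPM in the deficient libraries, whereas 15 macrophage markers summed to 13269 to 15388 CPM in the controls and to 15510.0 to 16954 CPM in the deficient libraries. Sox10, a defining gene of NCCs, stood at 4.78 ± 2.80 CPM in the controls and 1.18 ± 0.316 CPM in the deficient libraries (SD, n = 3), and Adgre1, the F4/80 macrophage antigen, at 945 ± 55.3 and 1097 ± 52.5 CPM (SD, n = 3). In all 6 libraries the macrophage markers thus stood far above those of the labelled cell type, which goes against the label for much of the RNA read. Of the 45 embryonic markers tested, 14 were called lower (31.1%, against 4.88% of all genes) and their median log2 fold change was −1.15. Of the 15 macrophage markers 0 were called (against 0.0573% of all genes called higher), but 0 had a negative log2 fold change, and their median was 0.19. The part of these marker differences in the results on matrix genes was not tested, and in sorted bulk samples fewer cells of a type and less RNA per cell cannot be told apart.

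Of the 50 matrix genes, 46 passed the filter on low counts. In the BAF155/170-deficient libraries 10 of these 46 were called lower and 0 were called higher, where a call needed an adjusted p not above 0.1, a log2 fold change no smaller than 0.58 in size and a mean level of 2 CPM or more (edgeR quasi-likelihood test, Benjamini-Hochberg over all genes). The members called lower made up 21.7% of those tested, against 4.88% of all 13961 genes tested called lower and 0.0573% called higher. They were the laminin chains Lama1, Lama2 and Lamb1, the nidogens Nid1 and Nid2, the fibrillin Fbn1, the fibulins Fbln1 and Fbln2, and the microfibril-associated genes Mfap2 and Mfap4. Their levels in the controls were 1.69 to 3.50 times those in the deficient libraries. By the adjusted p alone, 11 members were lower (23.9%, against 7.75% of all genes) and 0 higher (against 4.18% of all genes), the additional one being Vcan. In 20 members every deficient library lay below every control (43.5%, against 16.4% of all genes), and in 2 members, Sdc3 and Sdc4, every deficient library lay above every control (4.35%, against 15% of all genes).

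The median log2 fold change of the 46 members was −0.49, with quartiles of −1.09 and −0.03, and that of all tested genes was −0.02, with quartiles of −0.34 and 0.14. When libraries were scaled to 31 embryonic marker genes instead, the median of all genes moved to 1.0 and that of the members reversed to 0.54, with 0 members called lower (against 0.165% of all genes) and 16 called higher (34.8%, against 64.2% of all genes). Relative to the median of all genes, the members stood at −0.48 under TMM and at −0.46 under the scaling to embryonic markers. A change of scaling moves all genes by about the same amount, so these 2 values could hardly differ and are no separate support. The number called lower also depended on which library was left out. Leaving out control replicate 1, 2 or 3 gave 0, 2 and 15 members called lower, and leaving out deficient replicate 1, 2 or 3 gave 12, 4 and 0. The calls over all genes moved alike, with 0, 61 and 1219 genes called lower without control replicate 1, 2 or 3, and 1030, 219 and 17 without deficient replicate 1, 2 or 3. The log2 fold change of each of the 10 stayed negative with each of the 6 libraries left out. In all 10 every deficient library lay below every control, so this sign could hardly change and is no separate support.

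**Figure D1:**
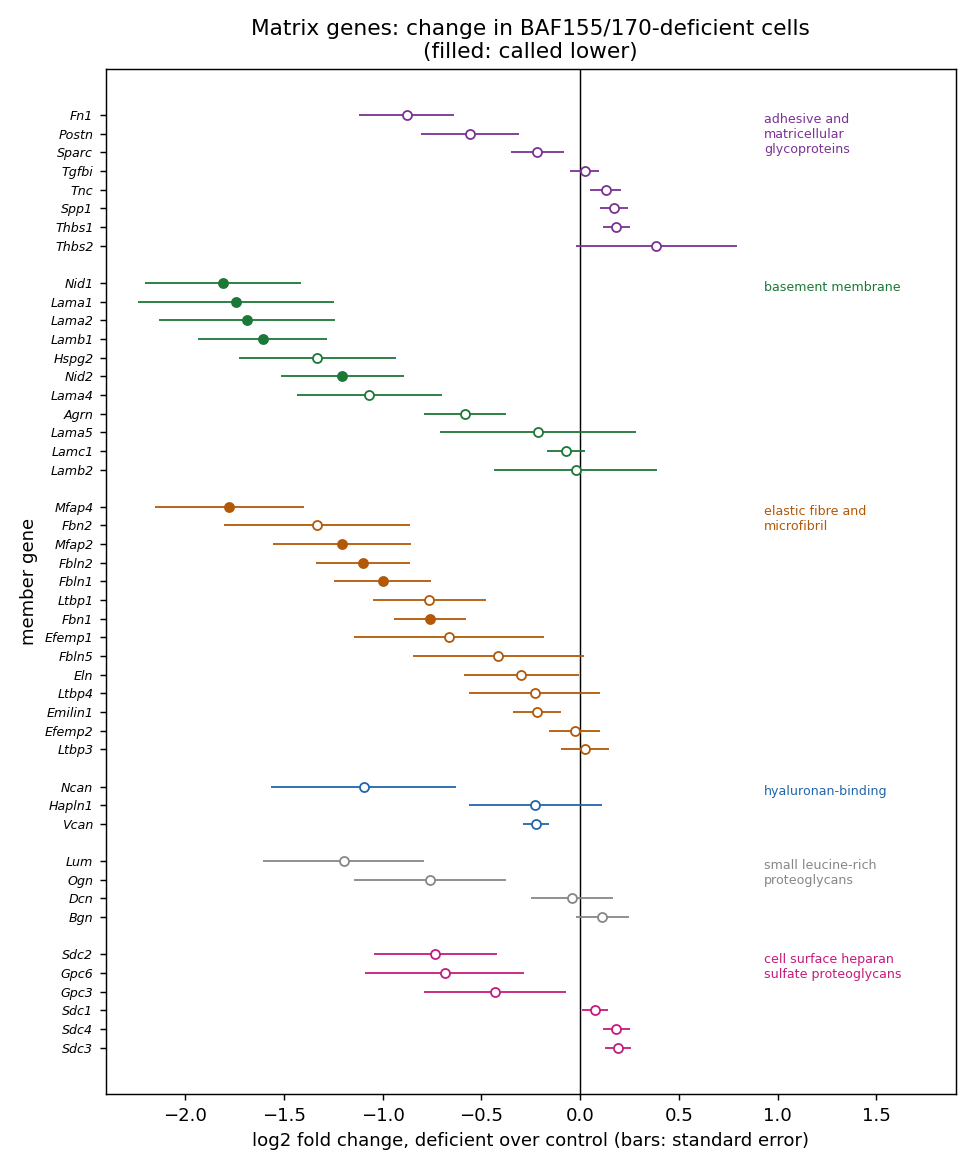
Log2 fold change of the 46 tested members (deficient over control, TMM scaling) on the horizontal axis, grouped by role on the vertical axis, with standard errors as bars and called members filled. The 10 filled points lie between −1.81 and −0.76 and belong to the basement membrane and to the elastic fibre and microfibril, whereas under the scaling to embryonic markers, which moves all genes up by about the same amount, 0 members are called lower.

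The study examined Tead-dependent transcription, so the promoters of the members (250 bases before to 50 after the start, RefSeq on GRCm38.p6) were searched on both strands for GGAATG, the core of the Tead motif, and for TGANTCA, the AP-1 motif. The study itself looked for Tead motifs in much longer promoters of its differentially expressed genes, so the shares below cannot be set against its result. Of the 50 members 36 had an entry, with 49 promoter windows. GGAATG was in 5 of the 49 (10.2%), against 14.7% of all 32851 promoters and 12.1% of those of tested genes, and TGANTCA was in 2 of the 49 (4.08%), against 7.81% and 5.25%. Among the members called lower, 7 had an entry, with 9 windows. GGAATG was in 2 of the 9 (22.2%, against 11.2% of the 699 promoters of all genes called lower). TGANTCA was in 0 of the 9 (against 4.43%). With 9 windows these shares are coarse. The 3 windows below hold GGAATG on the sense strand and belong to tested members. They are shown to put the letters in context, with the match in capitals. They come from chr13:13437410-13437469 (Nid1), chr4:141010221-141010280 (Mfap2) and chr13:49607902-49607961 (Ogn), all on the plus strand.
Nid1: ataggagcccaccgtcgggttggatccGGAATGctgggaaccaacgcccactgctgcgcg
Mfap2: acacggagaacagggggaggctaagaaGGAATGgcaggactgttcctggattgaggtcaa
Ogn: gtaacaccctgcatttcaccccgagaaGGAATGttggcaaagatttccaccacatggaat
The matches began at positions −165, −176 and −86 from the start of Nid1, Mfap2 and Ogn. A match is a description of the letters and no evidence of a bound site.

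Among the 11 basement membrane genes, 5 were called lower (45.5%, against 4.88% of all genes), 0 were called higher, and all 11 had a negative log2 fold change, with a median of −1.20 that was −0.13 under the scaling to embryonic markers, where 3 were called higher (against 64.2% of all genes). Their summed level was 198, 291 and 166 CPM in the controls against 144, 157 and 115 CPM in the deficient libraries (218 ± 65.1 against 139 ± 21.6 CPM, SD, n = 3; exact permutation test, 2-sided p = 0.1, the smallest that 3 against 3 samples allow). The groups did not overlap in this sum, nor in 8 of the 11 genes (72.7%, against 16.4% of all genes). The count of 5 changed to 0, 2 and 8 when control replicate 1, 2 or 3 was left out, and to 1 and 0 when deficient replicate 2 or 3 was left out.

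Nid1, at chr13:13437551-13512269 (GRCm38), encodes nidogen 1, a linker of laminin to type IV collagen, and is the gene of the first promoter printed above. Nid1 stood at 8.40, 18.1 and 6.07 CPM in the controls and at 3.37, 3.18 and 2.61 CPM in the deficient libraries. The deficient libraries were close to each other and all below the lowest control, and control replicate 2 was more than 2 times as high as the other controls. The log2 fold change was −1.81 ± 0.39 (edgeR, Benjamini-Hochberg adjusted p = 0.0676). Nid2, at chr14:19751265-19811787, encodes the second nidogen and stood at 7.34, 9.50 and 4.84 CPM against 3.68, 3.73 and 1.99 CPM, a log2 fold change of −1.20 ± 0.31 (edgeR, Benjamini-Hochberg adjusted p = 0.0762), again without overlap.

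Lama1 encodes the alpha chain of laminin-111, the first laminin laid down in the embryo, and lies at chr17:67697259-67822647. It stood at 7.55, 18.7 and 6.24 CPM in the controls and at 2.74, 4.58 and 2.23 CPM in the deficient libraries. Control replicate 2 was again far above the other controls, and the log2 fold change was −1.74 ± 0.49 (edgeR, Benjamini-Hochberg adjusted p = 0.0965). Lamb1 (chr12:31265234-31329644), the beta chain of the same trimer, stood at 10.7, 17.4 and 7.71 CPM against 5.33, 3.36 and 3.09 CPM, a log2 fold change of −1.61 ± 0.33 (edgeR, Benjamini-Hochberg adjusted p = 0.0583). Lama2 (chr10:26980036-27619758), the alpha chain of laminin-211 of muscle and Schwann cells, was read at 24, 44 and 27 counts in the controls and 9, 25 and 20 counts in the deficient libraries, or 2.55, 5.89 and 2.22 against 0.705, 1.53 and 0.950 CPM. Its log2 fold change was −1.69 ± 0.45 (edgeR, Benjamini-Hochberg adjusted p = 0.0765), and no control reached down to the deficient range.

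The remaining laminin chains did not pass the test. Lamc1 (chr1:153218922-153332786), the gamma chain that most laminin trimers share, stood at 37.0, 44.8 and 35.9 CPM in the controls and at 39.5, 34.3 and 37.8 CPM in the deficient libraries. The groups overlapped, the log2 fold change was −0.07 ± 0.10, and it ranged from −0.13 to 0.03 when a library was left out. Lama5 (chr2:180176373-180225859), the alpha chain that takes over from Lama1 in many epithelia, stood at 6.70, 8.43 and 3.36 CPM against 5.17, 8.13 and 2.47 CPM. Lamb2 (chr9:108479736-108490530), the beta chain of synaptic and kidney basement membranes, stood at 18.4, 14.4 and 13.4 CPM against 13.0, 24.1 and 8.55 CPM. The 3 deficient libraries spanned the whole control range of Lamb2, and its log2 fold change of −0.02 ± 0.41 ran from −0.53 to 0.28 over the libraries left out. Lama4, the alpha chain of vessel walls, stood at 5.19 ± 2.89 CPM in the controls and 2.42 ± 0.429 CPM in the deficient libraries (SD, n = 3; log2 fold change −1.07 ± 0.37, edgeR, Benjamini-Hochberg adjusted p = 0.107).

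Of the heparan sulfate proteoglycans of the basement membrane, Hspg2 (perlecan, chr4:137468769-137570630) stood at 22.4, 44.3 and 16.7 CPM in the controls and at 11.7, 11.9 and 9.26 CPM in the deficient libraries. The groups did not overlap, and the log2 fold change of −1.33 ± 0.40 missed the threshold (edgeR, Benjamini-Hochberg adjusted p = 0.115). Agrn (agrin, chr4:156165290-156197488), which clusters acetylcholine receptors at the nerve-muscle synapse, stood at 74.2, 101 and 64.8 CPM against 56.7, 60.2 and 43.0 CPM, also without overlap and also short of the threshold (log2 fold change −0.58 ± 0.21, edgeR, Benjamini-Hochberg adjusted p = 0.143). In both genes control replicate 2 was the highest library.

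**Figure D2:**
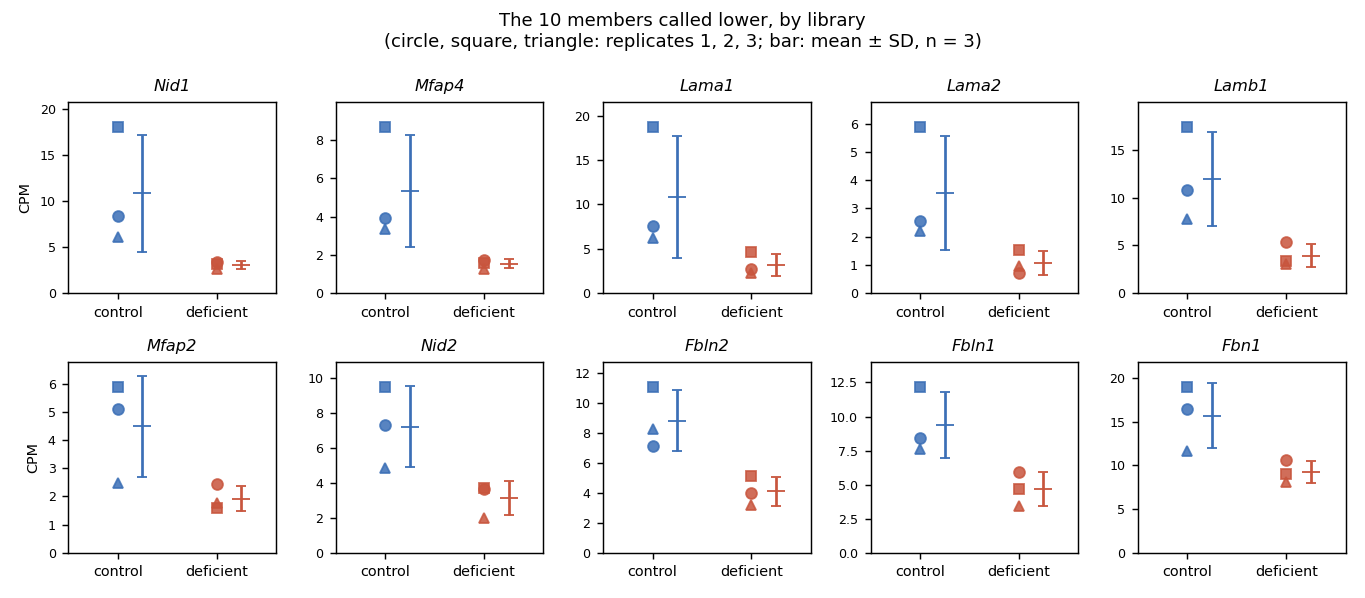
Level in CPM (vertical axes, each from 0) of the 10 members called lower in each of the 3 control (blue) and 3 deficient (red) libraries, with the mean and SD beside them. No deficient library reaches the lowest control in any panel, control replicate 2 (square) is the highest control in 10 of 10, and deficient replicate 3 (red triangle) is the lowest deficient library in 8 of 10.

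The elastic fibre and microfibril group of 14 genes also had 5 called lower (35.7%, against 4.88% of all genes) and 0 called higher. Of the 14, 13 had a negative log2 fold change, and the median was −0.71, which reversed to 0.32 under the scaling to embryonic markers, where 3 genes were called higher (against 64.2% of all genes). The summed level was 152, 187 and 118 CPM in the controls against 106, 98.2 and 81.2 CPM in the deficient libraries (exact permutation test, 2-sided p = 0.1). The count of 5 changed to 0 when control replicate 1, control replicate 2 or deficient replicate 3 was left out, and to 2 without deficient replicate 2.

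Mfap4 (chr11:61485431-61488900) encodes a fibrinogen-domain protein that binds elastin and microfibrils. It stood at 3.94, 8.70 and 3.36 CPM in the controls and at 1.72, 1.59 and 1.28 CPM in the deficient libraries. The deficient libraries were narrowly spread and below every control, and the log2 fold change was −1.78 ± 0.38 (edgeR, Benjamini-Hochberg adjusted p = 0.0534), the lowest adjusted p among the members. Mfap2 (chr4:141010418-141015984), a small glycoprotein that binds fibrillin and whose promoter is printed above, stood at 5.11, 5.89 and 2.46 CPM against 2.43, 1.59 and 1.76 CPM. The lowest control of Mfap2 was only just above the highest deficient library, and the log2 fold change was −1.21 ± 0.35 (edgeR, Benjamini-Hochberg adjusted p = 0.0830).

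Fbn1 (chr2:125300594-125507993) encodes fibrillin 1, the backbone of microfibrils and the gene mutated in Marfan syndrome. It stood at 16.5, 19.0 and 11.7 CPM in the controls and at 10.6, 8.98 and 8.17 CPM in the deficient libraries, and at 135 to 172 counts a library it was the most deeply read of the 10 called members. Its log2 fold change of −0.76 ± 0.18 was the smallest among them (edgeR, Benjamini-Hochberg adjusted p = 0.0671). It was 0.31 under the scaling to embryonic markers. Fbn2, which encodes the fibrillin most used in the embryo, stood at 42.3, 66.9 and 30.9 CPM against 28.6, 15.5 and 12.0 CPM, without overlap, but its wide spread left it short of the threshold (log2 fold change −1.33 ± 0.47, edgeR, Benjamini-Hochberg adjusted p = 0.164).

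Fbln1 and Fbln2 encode fibulins, which join elastic fibres and basement membranes. Fbln1 (chr15:85205949-85286535) stood at 8.40, 12.2 and 7.63 CPM in the controls and at 5.95, 4.70 and 3.47 CPM in the deficient libraries (log2 fold change −1.0 ± 0.25, edgeR, Benjamini-Hochberg adjusted p = 0.0686). Fbln2 (chr6:91212455-91272540) stood at 7.13, 11.1 and 8.29 CPM against 3.99, 5.13 and 3.23 CPM (log2 fold change −1.10 ± 0.24, edgeR, Benjamini-Hochberg adjusted p = 0.0553). Neither gene overlapped between groups, and under the scaling to embryonic markers Fbln1 was at 0.04 and Fbln2 at −0.05. The other fibulins did not pass the test: Efemp2, needed for elastic fibre assembly, stood at 11.3 ± 0.411 against 11.1 ± 0.667 CPM, Fbln5 at 1.86 ± 1.11 against 1.39 ± 0.323 CPM and Efemp1 at 1.07 ± 0.453 against 0.691 ± 0.220 CPM (SD, n = 3).

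Latent TGF-beta binding proteins anchor inactive TGF-beta in the matrix. Ltbp1 (chr17:75005568-75392512) stood at 6.49, 6.15 and 4.35 CPM in the controls and at 3.13, 4.52 and 2.33 CPM in the deficient libraries. The lowest control was below the highest deficient library, and the log2 fold change was −0.76 ± 0.29 (edgeR, Benjamini-Hochberg adjusted p = 0.121). Ltbp3 (chr19:5740904-5758532) stood at 16.4, 17.1 and 15.5 CPM against 15.5, 18.9 and 15.3 CPM, a log2 fold change of 0.02 ± 0.12 that ran from −0.08 to 0.08 over the libraries left out. Ltbp4 had a log2 fold change of −0.23 ± 0.33, the elastin gene Eln of −0.30 ± 0.29 and Emilin1, an elastic fibre interface protein, of −0.22 ± 0.12, and none of the 3 passed the test.

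The 8 adhesive and matricellular glycoproteins held no called gene (against 4.88% of all genes called lower and 0.0573% higher), and their median log2 fold change was 0.08. With 8 genes, the lack of a call does not set them apart from all genes. Fibronectin, the main fibrillar glycoprotein of the routes NCCs migrate along, is encoded by Fn1 (chr1:71585520-71653200), which stood at 60.2, 83.7 and 47.4 CPM in the controls and at 35.8, 39.5 and 28.3 CPM in the deficient libraries. The groups did not overlap, and at a log2 fold change of −0.88 ± 0.24 it was not called (edgeR, Benjamini-Hochberg adjusted p = 0.101). Fn1 was called lower in 7 of the 9 alternatives that keep all libraries and in 1 of the 6 that leave out a library. In those 7 the adjusted p (Benjamini-Hochberg) ran from 4.0e-05 without a filter on counts to 0.0988 with median-of-ratios size factors (both edgeR). It was 7.3e-05 with the replicate block (edgeR), 0.00011 with DESeq2 and 0.0740 with limma-voom. Without a filter, with the block, with DESeq2 and with limma-voom more genes were called lower over the whole table too (982, 1143, 874 and 829, against 681). Postn (periostin), a protein of craniofacial and valve mesenchyme, stood at 14.7 ± 1.75 against 10.1 ± 3.76 CPM (SD, n = 3; edgeR, Benjamini-Hochberg adjusted p = 0.183). Sparc, a collagen-binding protein, was at 25.2 ± 3.45 against 21.6 ± 3.35 CPM, Tnc (tenascin C) at 33.0 ± 1.12 against 36.1 ± 2.21 CPM and Thbs2 at 1.17 ± 0.367 against 1.53 ± 0.528 CPM (SD, n = 3), and none of the 3 passed the test.

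None of the members with the most counts was called (against 4.88% of all genes called lower and 0.0573% higher). Of the 10 with the highest mean CPM, 8 had a log2 fold change under 0.25 in size. The members called lower had means of 2.31 to 12.5 CPM. Per kilobase of exon, Spp1 was at 814 CPM in the controls and 917 CPM in the deficient libraries, and the called members were at 0.0649 to 3.70 CPM.

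Spp1 (chr5:104435118-104441050) encodes osteopontin, a secreted phosphoprotein also made by macrophages. It stood at 1334, 1255 and 1438 CPM in the controls and at 1430.3, 1525 and 1577 CPM in the deficient libraries, a log2 fold change of 0.17 ± 0.07 (edgeR, Benjamini-Hochberg adjusted p = 0.153). Thbs1 (thrombospondin 1, chr2:118111876-118127133), an activator of latent TGF-beta, stood at 196, 192 and 216 CPM against 216, 242 and 228 CPM (log2 fold change 0.18 ± 0.07, edgeR, Benjamini-Hochberg adjusted p = 0.115). In each gene the highest control was at or above the lowest deficient library. Tgfbi (chr13:56609523-56639562), a fasciclin-domain adhesion protein, stood at 58.3, 65.8 and 66.4 CPM against 61.6, 64.0 and 67.7 CPM, with a log2 fold change of 0.02 ± 0.07 that ran from −0.03 to 0.06 over the libraries left out.

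Syndecans and glypicans hold heparan sulfate at the cell surface and act as co-receptors for growth factors. None of these 6 genes was called (against 4.88% of all genes called lower and 0.0573% higher), which with 6 genes does not set them apart. Sdc3 (chr4:130792537-130826319) stood at 534, 527 and 589.7 CPM in the controls and at 602, 627 and 656 CPM in the deficient libraries, and Sdc4 (chr2:164424247-164443887) at 496, 482 and 546 CPM against 551, 577 and 602 CPM. In both genes every deficient library was above every control, but the log2 fold changes of 0.19 ± 0.07 and 0.18 ± 0.07 did not pass the test (edgeR, Benjamini-Hochberg adjusted p = 0.104 and 0.114). The summed macrophage markers were likewise higher in every deficient library, with a median log2 fold change of 0.19 over the 15 genes, and their part in the levels of Spp1, Thbs1, Sdc3 and Sdc4 was not tested.

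Sdc1 (chr12:8771323-8793715) stood at 67.5, 66.4 and 66.4 CPM in the controls and at 71.9, 65.1 and 73.8 CPM in the deficient libraries (log2 fold change 0.07 ± 0.07). Sdc2 (chr15:32920723-33034935), the syndecan of mesenchyme, stood at 4.36, 2.94 and 3.12 CPM against 2.04, 2.75 and 1.52 CPM, without overlap (log2 fold change −0.73 ± 0.31, edgeR, Benjamini-Hochberg adjusted p = 0.156). The glypicans Gpc3, of the Simpson-Golabi-Behmel overgrowth syndrome, and Gpc6 stood at 25.7 ± 7.11 and 10.4 ± 2.94 CPM in the controls and at 19.1 ± 6.80 and 6.42 ± 3.32 CPM in the deficient libraries (SD, n = 3), with adjusted p of 0.499 and 0.318 (edgeR, Benjamini-Hochberg).

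**Figure D3:**
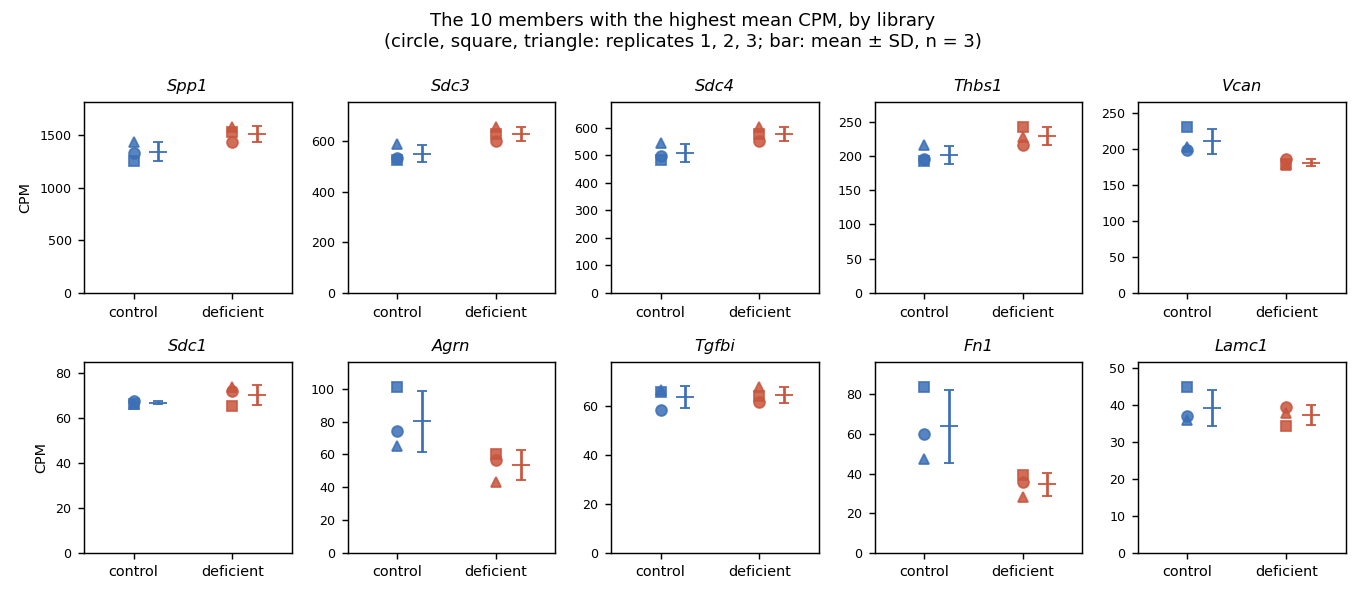
Level in CPM (vertical axes, each from 0) of the 10 members with the highest mean CPM in each of the 3 control (blue) and 3 deficient (red) libraries, with the mean and SD beside them. No gene is called (against 4.88% of all genes called lower and 0.0573% higher). Sdc3 and Sdc4 are higher in every deficient library, and Vcan, Agrn and Fn1 are lower in every deficient library under TMM scaling. Under the scaling to embryonic markers the log2 fold changes of Vcan, Agrn and Fn1 are 0.81, 0.48 and 0.21.

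The 4 members with the highest mean CPM had positive log2 fold changes, and 36 of the 46 tested had negative ones. The sum over all 50 members was 3452, 3569 and 3598 CPM in the controls against 3556, 3699 and 3733 CPM in the deficient libraries, a log2 ratio of 0.05 (exact permutation test, 2-sided p = 0.3). Spp1, Sdc3, Sdc4 and Thbs1 made up 68.8% to 77.5% of it in the controls and 78.7% to 82.1% in the deficient libraries. Those 4 genes together stood at 2602 ± 170 against 2945 ± 134 CPM, and the other 46 together at 938 ± 157 against 718 ± 44.7 CPM (SD, n = 3; exact permutation test, 2-sided p = 0.1 for each, the smallest possible). The 10 called members alone summed to 77.6, 126 and 60.5 CPM in the controls and to 40.5, 38.4 and 28.8 CPM in the deficient libraries.

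Hyaluronan-binding proteoglycans swell the matrix that migrating cells move through. Versican is encoded by Vcan (chr13:89655312-89742509), which stood at 199, 231 and 203 CPM in the controls and at 186, 179 and 178 CPM in the deficient libraries. The groups did not overlap and the adjusted p was 0.0866 (edgeR, Benjamini-Hochberg), but the log2 fold change of −0.22 ± 0.07 was under the size needed for a call, and it was 0.06 when offsets were corrected for gene length. Hapln1, the link protein whose gene lies 43.7 kb from Vcan on the same chromosome, stood at 2.0 ± 0.449 against 1.69 ± 0.276 CPM, and Ncan (neurocan, of nervous tissue) at 18.7 ± 7.22 against 8.75 ± 4.52 CPM (SD, n = 3; edgeR, Benjamini-Hochberg adjusted p = 0.703 and 0.208). The cartilage and brain members Acan and Bcan were under the filter, with 7 and 9 counts over all 6 libraries.

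The small leucine-rich proteoglycans bind collagen fibrils and growth factors. Of the 4, 0 were called (against 4.88% of all genes called lower and 0.0573% higher), which with 4 genes does not set them apart. Lum (lumican) and Dcn (decorin) lie 47.0 kb apart on chromosome 10, and their values differed. Lum stood at 2.31 ± 1.03 CPM in the controls and 0.998 ± 0.153 CPM in the deficient libraries (SD, n = 3; log2 fold change −1.20 ± 0.41, edgeR, Benjamini-Hochberg adjusted p = 0.102), without overlap. Dcn stood at 6.55 ± 0.800 against 6.33 ± 1.23 CPM (SD, n = 3; log2 fold change −0.04 ± 0.21). Ogn, osteoglycin, the gene of the third promoter printed above, was at 1.46 ± 0.285 against 0.853 ± 0.0544 CPM and Bgn (biglycan) at 16.0 ± 2.95 against 17.2 ± 0.157 CPM (SD, n = 3). Of the matrilins, Matn2 was under the filter with 66 counts over the 6 libraries and Matn4 with 4.

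Ratios between related members within a library do not move with its scaling. Of 15 pairs compared, 4 ratios were higher in every deficient library than in every control, 1 was lower in every one, and 10 overlapped. The share over all pairs of genes was not computed. Among single genes, 15% lay above and 16.4% below every control in every deficient library, so the count is not read as particular to these pairs. With 3 against 3 samples each of the 5 had an exact permutation p of 0.1, the smallest possible, and 0.3 after Benjamini-Hochberg adjustment over the 15 pairs, so none passed a test.

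Among the laminin alpha chains, the log2 ratio of Lama5 to Lama1 was −0.17, −1.15 and −0.88 in the controls and 0.91, 0.82 and 0.14 in the deficient libraries, a difference of 1.36. Lama1 had more counts than Lama5 in every control and fewer in every deficient library. Among the beta chains, the log2 ratio of Lamb2 to Lamb1 was 0.77, −0.27 and 0.79 in the controls and 1.28, 2.83 and 1.46 in the deficient libraries, a difference of 1.43, to which the high Lamb2 of deficient replicate 2 gave the largest value. The log2 ratio of Agrn to Hspg2 was 1.72, 1.19 and 1.95 in the controls and a narrow 2.28, 2.34 and 2.21 in the deficient libraries.

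Outside the basement membrane, the log2 ratio of Ltbp3 to Ltbp1 was 1.33, 1.47 and 1.82 in the controls and 2.29, 2.05 and 2.71 in the deficient libraries, a difference of 0.81. The log2 ratio of Sdc2 to Sdc4 was −6.81, −7.32 and −7.43 in the controls and −8.05, −7.70 and −8.61 in the deficient libraries, a difference of −0.93. The overlapping pairs included the nidogens (Nid2 to Nid1, difference 0.47), the fibulins (Fbln2 to Fbln1, −0.10) and the fibrillins (Fbn2 to Fbn1, −0.60).

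**Figure D4:**
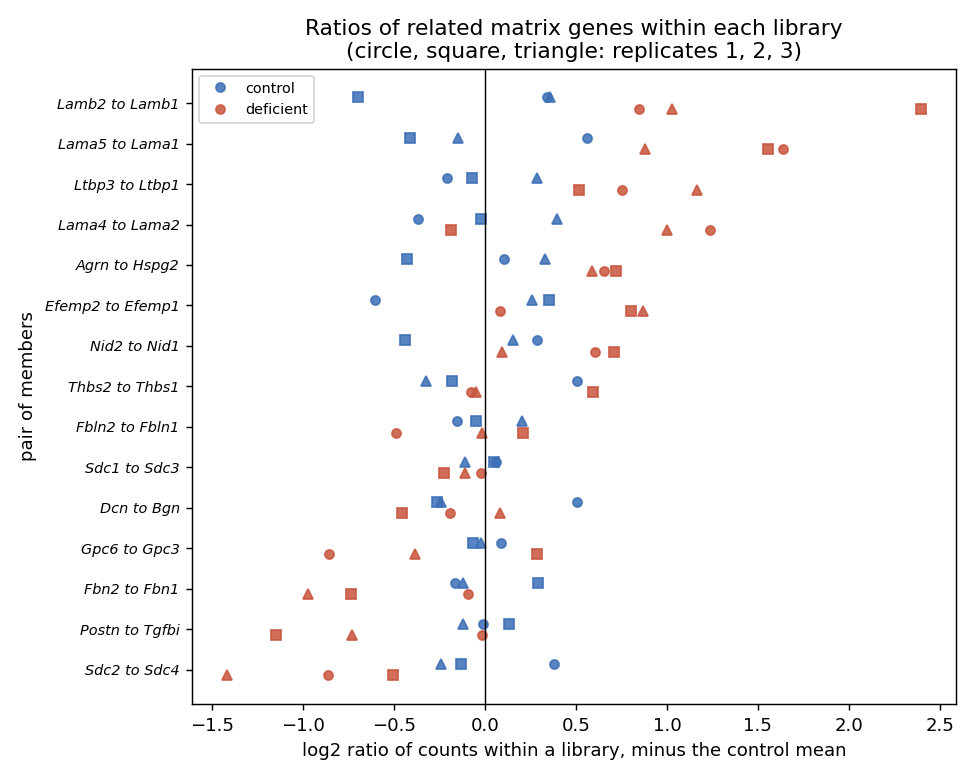
Log2 ratio of counts of 15 pairs of related members within each library, minus the control mean of the pair (horizontal axis), for the 3 control (blue) and 3 deficient (red) libraries, by pair on the vertical axis. The ratios of Lamb2 to Lamb1, Lama5 to Lama1, Ltbp3 to Ltbp1 and Agrn to Hspg2 lie to the right of all controls and that of Sdc2 to Sdc4 to the left, and the other 10 overlap.

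The libraries of a group were not alike in these genes. Control replicate 2 was the highest control in 30 of the 46 members and control replicate 3 the lowest in 29, and deficient replicate 3 was the lowest deficient library in 26. The median over the members of the log2 level, taken relative to the control mean of each gene, was −0.04, 0.22 and −0.22 in the controls and −0.27, −0.31 and −0.79 in the deficient libraries. For the basement membrane it was −0.08, 0.62 and −0.54 in the controls and −0.92, −1.07 and −1.46 in the deficient libraries. The embryonic markers, at 279, 415 and 191 CPM in the controls, had the same order, with control replicate 2 highest and control replicate 3 lowest, and deficient replicate 3 was the lowest of all at 109 CPM. Their part in the spread of the matrix genes was not tested.

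**Figure D5:**
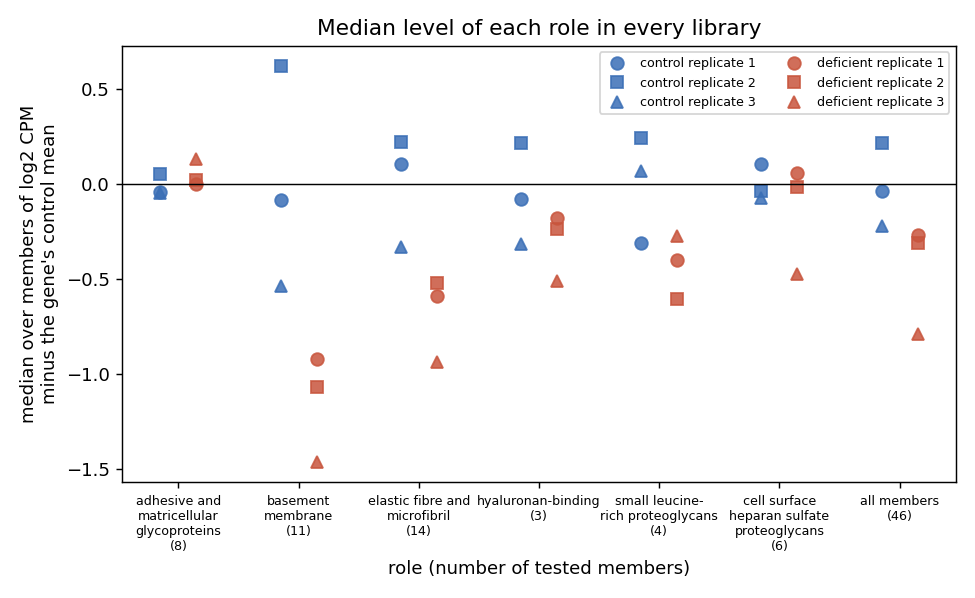
Median over the tested members of each role (horizontal axis, number of members in parentheses) of the log2 CPM minus the control mean of the gene (vertical axis, TMM scaling), for each control (blue) and deficient (red) library. The 3 deficient libraries lie below all controls for the basement membrane, for the elastic fibre and microfibril and for all members together. Under the scaling to embryonic markers the median log2 fold change reverses to 0.32 for the elastic fibre and microfibril and to 0.54 for all members, and is −0.13 for the basement membrane. The spread among the 3 controls of the basement membrane runs from −0.54 to 0.62.

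Other genes of the matrix pathway were read in the same fit, from lists of genes that are not members. Of 81 listed matrix glycoproteins and proteoglycans 40 were tested, 8 were called lower (20%, against 4.88% of all genes) and 0 higher, and the median log2 fold change was −0.53. Sned1, a fibrillar matrix glycoprotein, stood at 3.83 ± 0.713 against 0.773 ± 0.0762 CPM (SD, n = 3; log2 fold change −2.28 ± 0.32, edgeR, Benjamini-Hochberg adjusted p = 0.0381), and the other 3 of lowest p were Nell2, Smoc1 and Hmcn1, at −1.65, −1.60 and −1.41. Smoc1 binds calcium in basement membranes and Hmcn1 encodes hemicentin 1, a giant fibulin-related protein. Of 48 listed enzymes that make or edit glycosaminoglycan chains 39 were tested, 3 were called lower (7.69%, close to the 4.88% of all genes) and 0 higher, and the median was −0.05. The 3 were Sulf1, which removes sulfate from extracellular heparan sulfate (12.5 ± 3.47 against 4.51 ± 0.631 CPM, SD, n = 3; log2 fold change −1.47 ± 0.23, edgeR, Benjamini-Hochberg adjusted p = 0.0393), Ndst3 (−1.73), a heparan sulfate sulfotransferase, and Chst15 (−0.80), a chondroitin sulfotransferase.

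Of 8 listed matrix cross-linking enzymes 6 were tested and 0 were called, with a median log2 fold change of 0.14. Tgm2, tissue transglutaminase, which is also made by macrophages, stood at 421 ± 34.2 against 483 ± 16.2 CPM (SD, n = 3; edgeR, Benjamini-Hochberg adjusted p = 0.108), and Loxl2, a lysyl oxidase, at 4.58 ± 0.942 against 2.94 ± 0.201 CPM (SD, n = 3; edgeR, Benjamini-Hochberg adjusted p = 0.132). Over the pathway lists together, 11 genes were called lower and 0 higher, and under the scaling to embryonic markers 1 was called lower and 46 higher (54.1% of the 85 tested, against 64.2% of all genes).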

How the data were processed

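RNAseq of GFP+ NCCs was read in 3 control and 3 BAF155/170-deficient samples. The authors deposited raw counts per gene, made from strand-specific paired-end poly(A) reads trimmed with cutadapt 1.18, checked with FastQC 0.11.7, aligned to GRCm38 with STAR and counted with featureCounts; the annotation release, strand setting and treatment of multimapping reads are not given in the sources used here. Names and exon lengths came from GENCODE M21 (46488 of 46983 identifiers matched without their version). The 495 unnamed ones held at most 0.0706% of a library's counts and stayed in the table under their identifiers. Those that passed the filter were tested, except under the length correction, which needs an exon length and tested 13930 genes.

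The counts were fitted with edgeR 4.0.16 under R 4.3.3 (filterByExpr with minimum count 10 and minimum total count 15, TMM, robust quasi-likelihood fit, condition as the only term), and p-values were Benjamini-Hochberg adjusted over 13961 genes. The common biological coefficient of variation was 12.8%. Calls used the thresholds of the study's methods. Standard errors came from the F statistic. CPM were computed on TMM-scaled library sizes. Ratios added 0.5 to each count. Exact permutation tests were 2-sided over samples. The pipeline was tested on simulated data, where, among 13725 genes, 89.8% of those set to a log2 change of 2 were recovered, with 9 false calls. That change was larger than that of any called member, and every gene was given the common coefficient of variation. The simulation thus checks that the code runs and does not measure how reliable the calls reported here are. Labels do not say which samples came from separate litters, so p-values measure the spread between these samples.

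The members and lists were chosen with earlier results of these data known. All 50 members are accounted for. Values in every sample are given for called members, for the genes of pairs whose ratio separated the groups and for the 10 members of highest mean CPM, and, chosen after their values were seen, for Fbn2. Of each pathway list at most 4 genes of lowest p among called genes, or among all tested where none was called, are named. Other marker lists were read likewise: erythroid (8 tested), neutrophil (3), platelet (3), endothelial (5) and smooth muscle (3) lists had 0 calls (against 4.88% of all genes called lower and 0.0573% higher). Their median log2 fold changes were −0.24, 0.51, 0.20, 0.06 and −0.22, in that order. No epithelial marker passed the filter. Alternatives were DESeq2 1.42.0, limma-voom (limma 3.58.1), other scalings, filters and thresholds, offsets corrected for exon length (lowess, span 0.3), a replicate block and each library left out. Figures used Python 3.11.15 and matplotlib 3.10.9.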

Additional observations from a re-analysis of the deposited data

How the results depend on the processing

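The limits of these results are the 3 samples a group, the low counts of the called members (149 to 893 over the 6 libraries) and the dependence on single libraries. The 10 members called lower were 14 with DESeq2, 13 with limma-voom and 15 with a replicate block, and 0 at a stricter adjusted p (edgeR, Benjamini-Hochberg) of 0.05 or under the scaling to embryonic markers, where 16 were called higher (34.8%, against 64.2% of all genes). Leaving out a library gave 0 to 15. Calls over the whole table rose too, from 681 genes lower to 874 with DESeq2, 829 with limma-voom and 1143 with the block. All 10 remained called with DESeq2, with library totals, with median-of-ratios size factors, under both other filters and with the block, and 9 with limma-voom or the length correction. At an unadjusted p under 0.05 (edgeR), 16 of 47 members were lower without control replicate 1 and 13 of 47 without deficient replicate 3. Over all genes, 2547 of 14318 and 2200 of 14280 were under it, counting both directions. Of the members not called, Fn1 was called lower in 7 of the 9 alternatives that keep all libraries, Lama4 in 4, Hspg2 in 3, Fbn2, Ltbp1 and Gpc6 in 2 each and Ncan in 1. The causes were not tested.

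Pathway genes called lower (11) were 17 with DESeq2, 18 with the block, 1 under the scaling to embryonic markers (46 called higher, 54.1% of those tested), 2 at the stricter adjusted p and 0 to 22 with a library left out. Replicate numbers did not clearly pair the samples. The correlations of same-numbered deviations were 0.0284, −0.0335 and 0.293, and differently numbered ones ran from −0.295 to 0.261. The block is therefore only an alternative, and it is among those counted for Fn1 and the other members not called. It called 1143 genes lower and 21 higher over the whole table, against 681 and 8.

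Scaling to embryonic markers shifts every value by about the same amount, and reversed the member median to 0.54, the elastic fibre median to 0.32 and these log2 fold changes: Fn1 0.21, Lama4 0.072, Lama5 0.89, Lamb2 0.99, Lamc1 0.97, Agrn 0.48, Fbn1 0.31, Eln 0.78, Emilin1 0.84, Fbln1 0.045, Fbln5 0.62, Efemp1 0.33, Efemp2 1.0, Ltbp1 0.29, Ltbp4 0.81, Postn 0.44, Vcan 0.81, Hapln1 0.83, Sparc 0.84, Dcn 1.01, Ogn 0.29, Gpc3 0.60, Gpc6 0.39 and Sdc2 0.27. The length correction gave Lama5 0.0023, Lamb2 0.058, Lamc1 0.088, Vcan 0.059 and Dcn 0.043, library totals gave Lamb2 0.026, Efemp2 0.032 and Dcn 0.027, and no filter gave Lamb2 0.028, Efemp2 0.022 and Dcn 0.0094. With a library left out the ranges that crossed 0 were −0.69 to 0.15 for Lama5, −0.53 to 0.28 for Lamb2, −0.13 to 0.032 for Lamc1, −0.69 to 0.13 for Fbln5, −0.074 to 0.0095 for Efemp2, −0.077 to 0.079 for Ltbp3, −0.027 to 0.21 for Bgn, −0.20 to 0.094 for Dcn, −0.034 to 0.059 for Tgfbi, and, for log2 ratios, −0.25 to 0.095 for Fbln2 to Fbln1, −0.065 to 0.41 for Thbs2 to Thbs1 and −0.32 to 0.064 for Dcn to Bgn. The member median was −0.63 to −0.34 with a library left out.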
